A study of Arabidopsis thaliana with 9 samples.

Results

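RNA labelled as wild-type inflorescence meristem of Arabidopsis thaliana is described here from 3 of the 9 libraries of the series. They are those labelled col-0, chosen by that genotype label alone. The tissue is named by its label, and markers of anthers and pollen were also read, as given below. The other 6 libraries, from a csld5 mutant and from that mutant carrying a pATML1::GFP+CSLD5 transgene, are not used. The labels give the genotype col-0 (the Columbia accession, used as wild type), the tissue inflorescence meristem and total RNA, and name no treatment. The sources used here do not state plant age, growth, dissection or pooling, and nothing says whether the 3 libraries came from separate plants, so every SD measures the spread between these libraries, which may be technical. Bulk samples hold many cell types, and more cells of a type cannot be told apart from more RNA per cell.

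The inflorescence meristem is the growing tip that makes flower primordia on its flanks throughout flowering. Its stem cells are kept by a feedback loop in which the homeodomain protein WUSCHEL, made in the organizing centre beneath them, promotes their fate, and the peptide CLAVATA3, secreted by the stem cells, signals through receptor kinases to limit WUSCHEL. KNOX homeodomain proteins keep cells undifferentiated, LEAFY and APETALA1 give the flanking primordia the identity of flowers, and MADS-box proteins of the ABCE classes then assign sepals, petals, stamens and carpels.

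Levels are given as the deposited TPM, a transcript abundance scaled to each library's total and corrected for gene length, which allows genes to be compared with each other. Values are listed in the order replicate 1, 2 and 3, and errors are SD with n = 3. The 3 libraries held 42654580, 43575089 and 35543318 counts, and their log2 TPM correlated across genes at 0.992 to 0.994. Of 25760 genes in the tables, 20382 stood at 1 TPM or more in each library and are termed detected, 4152 stood under 1 TPM in each, and 1226 lay on both sides. The median detected gene had 16.7 TPM, with quartiles at 7.44 and 35 TPM. Every listed gene has at least 1 count in replicate 1, while 1001 and 1342 have none in replicates 2 and 3. The sources used here do not say whether the tables were filtered on that library. Ranks, medians over all genes and counts of list members in the tables refer to the listed genes alone. The deposited counts and TPM do not rest on the same reads everywhere. When TPM was recomputed from the counts and exon lengths, 93.4% of 16823 genes with a mean of at least 5 TPM came within 2-fold of the deposited value, but 695 came to under 0.25 of it. Among those 695 genes, 96.3% have an exon that overlaps an exon of another gene, mostly on the opposite strand, against 30.6% of the rest. Genes named below that belong to them are marked, the count-derived TPM or the counts are given where it differs from the deposited value by more than 1.5 times, and orders of genes are those of the deposited TPM. Counts put another gene first in 11 of the 40 lists used below. Whether the TPM or the counts of the marked genes hold their own reads was not tested.

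Transcript abundance was concentrated in few genes. The 10 highest genes held 5.02% ± 0.226 of the summed TPM, the 100 highest held 17.8% ± 0.362, and 1096 genes held 50%. A mean of at least 1000 TPM was reached by 80 genes and one of at least 100 TPM by 1532. The median exon length of protein-coding genes was 1288 bases under 1 TPM, 1730 at 1 to 10, 1818 at 10 to 100, 1270 at 100 to 1000 and 1101 at 1000 TPM or more, so it did not move in 1 direction with the level.

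**Figure D1:**
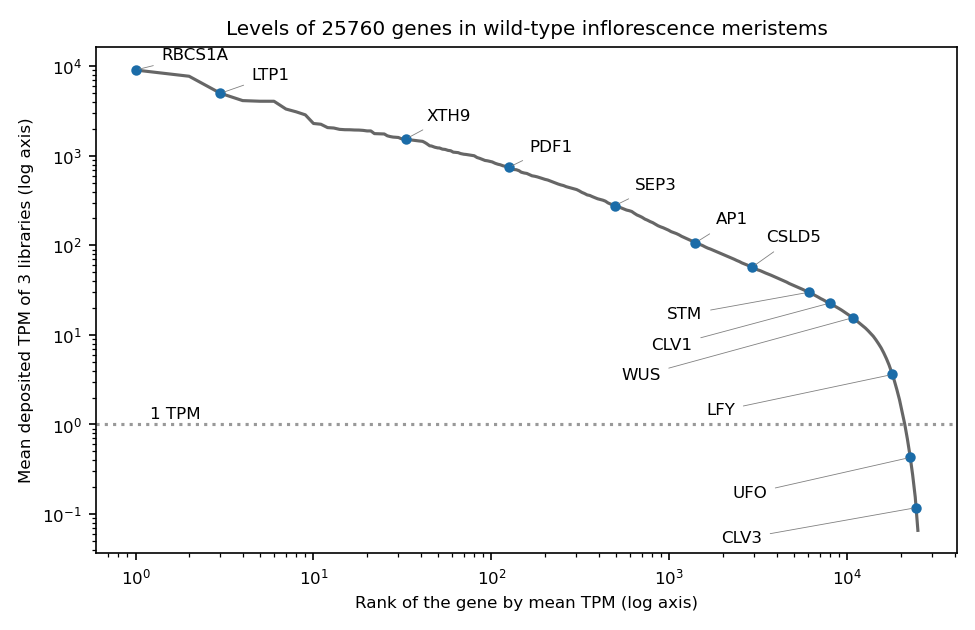
Mean deposited TPM of each gene (log axis) against its rank (log axis) over the 3 wild-type libraries, with 13 genes marked as points. RBCS1A stands at rank 1 and SEP3 at rank 494, while WUS lies at rank 10719 and CLV3 at rank 24351, below the dotted line at 1 TPM.

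The highest gene was RBCS1A, which encodes a small subunit of the carbon-fixing enzyme RuBisCO, at 9021, 8645 and 9649 TPM. CAB1, also known as LHCB1.3, an antenna protein of photosystem II, followed at 7795, 7817 and 7659 TPM. Both stood above every other gene in each library. Of the 30 highest nuclear genes, 15 are RuBisCO small subunits, photosystem subunits or antenna proteins: beside those already given, RBCS3B had 3339 TPM, PSBR 3105, CAB3 1979.7, PSBX 1958, LHCA4 1942, LHCB5 1928, PSAG 1900.2, LHCA1 1773, CAB2 1759.8, LHCB3 1757, RBCS2B 1643, PSBP-1 1613 and PSAK 1606 TPM. PSAG is one of the marked genes, at 91.7 TPM from its counts. FED A, a ferredoxin that carries electrons from photosystem I, had 1766 ± 68.4 TPM, and THI1, which makes the thiazole part of thiamine in the chloroplast, had 1961 ± 144 TPM. RuBisCO small subunit and LHCB1 genes are near-identical copies, so reads may be split between them arbitrarily.

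Genes of the plant surface and wall were also among the 30. LTP1, a secreted lipid transfer protein of the epidermis and listed as LP1 in the annotation, had 4814, 4784 and 5416 TPM, and LTP6 of the same family had 2301 ± 178 TPM. AT2G20870, annotated as a cell wall protein precursor, had 3629, 3702 and 5107 TPM, highest in replicate 3. AT5G22430, annotated as a Pollen Ole e 1 allergen and extensin family protein, had 1553, 1544 and 1932 TPM and was likewise highest in replicate 3. The metallothioneins MT2B and MT2A, small metal-binding proteins, had 4079 ± 314 TPM and 1946 ± 64.8 TPM. The other genes among the 30 were VSP1, a vegetative storage protein that jasmonate induces, at 4478, 3583 and 4169 TPM, the RNA-binding protein GRP7 at 2873 ± 189.6 TPM, the dehydrin AT1G54410 at 2257 ± 75.5 TPM, MLP423 at 2071 ± 227 TPM, the cold-responsive KIN2 at 2048 ± 251 TPM, the ribosomal protein gene AT1G70600 at 1900.4 ± 132 TPM, and AT5G60390, annotated as an elongation factor Tu family GTP-binding protein, at 1622 ± 12.9 TPM. VSP1 was lowest in replicate 2 and KIN2 highest in replicate 1.

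Gene families were gathered by the words of the RefSeq annotation. Cytosolic ribosomal proteins, the protein part of the machinery that makes protein, were the largest of these families as gathered, after the wider ribosome set given last. The photosynthesis set given next is incomplete, so its place under them is not settled. The 201 cytosolic ribosomal protein genes held 8.61%, 8.27% and 7.79% of the summed TPM, a mean of 8.22% ± 0.415. Replicate 3 was lowest in this share. Their median was 328 TPM, 161 of the 201 reached 100 TPM and 193 were detected. The highest after AT1G70600 were AT3G08520 of the L41 family at 1381 TPM, UBQ5 at 1314 TPM, AT4G15000 of the L27e family at 1290 TPM, and emb2171 of the L14p/L23e family at 1223 TPM. The lowest, AT1G59359 and AT1G58684 of the S5 family, had 0.216 and 0.14 TPM (0.0422 TPM from counts for the second). Ribosomal protein genes occur in near-identical copies, so the split of reads between copies is uncertain and the family's sum is firmer than a member's value. All 345 nuclear genes noted as structural parts of any ribosome, plastid and mitochondrial ones included, held 11.4% ± 0.491.

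Nuclear genes gathered as photosystem subunits, antenna proteins and the RuBisCO small subunit numbered 50 and held 7.26%, 7.18% and 7.47%, with a median of 1000 TPM. The lowest were PSBP-2, annotated to the oxygen-evolving complex, at 1.45 ± 0.596 TPM, and Lhca6 at 49.8 ± 3.89 TPM. This set is incomplete, because the words searched missed products that begin with a capital, as in Photosystem. Among those missed were the marked genes PSAE-1 at 807 TPM (136 TPM from counts) and AT1G51400 at 683 TPM (2.76 TPM from counts). Core histones, which package DNA and are made mainly during S phase, numbered 45 and held 1.36%, 1.36% and 1.3%, with a median of 274 TPM. HTB2 was their highest at 914, 916 and 844 TPM, followed by AT5G59690 at 776, HTB9 at 705 and HTB4 at 649.6 TPM. HTB9 had 193 TPM from counts, which puts it under HTB4 at 514 TPM on that scale. Histone and elongation factor genes have close copies, with the same uncertainty. Genes whose product names a translation elongation factor numbered 31 and held 0.533% ± 0.0045, led by AT5G60390 and by LOS1, annotated to the elongation factor G family, at 532 ± 5.73 TPM. Genes whose product names a lipid transfer protein, a family gathered after the highest genes had been seen, numbered 76 and held 1.6% ± 0.0268, although their median was only 18.4 TPM and 13 stood under 1 TPM in every library.

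The promoters shown here were chosen because they belong to the highest members of their families that hold the sequence motifs long linked to those families in plants. Each is the 200 bases before the annotated start in RefSeq TAIR10.1, and capitals mark the motifs named for that promoter, on either strand. AT3G08520 (chr3:2585801-2586000, plus strand, L41 family, 1769, 1132 and 1243 TPM) holds site II (TGGGCC or TGGGCT) at 143 to 138 and 124 to 119 bases before the start and the telo box (AAACCCTA) at 105 to 98. AT5G15200 (chr5:4936430-4936629, minus strand, ribosomal protein S4, 1043, 1065 and 1005 TPM) holds site II 4 times, the nearest at 39 to 34, and the telo box at 9 to 2. AT5G59690 (chr5:24051274-24051473, plus strand, a histone, 804, 776 and 747 TPM) holds the histone octamer (CGCGGATC) at 71 to 64, and CYCB1;2 (chr5:1861704-1861903, minus strand, 52.3, 55.6 and 50.6 TPM) holds the core of the mitosis-specific activator element (AACGG) 4 times.
AT3G08520: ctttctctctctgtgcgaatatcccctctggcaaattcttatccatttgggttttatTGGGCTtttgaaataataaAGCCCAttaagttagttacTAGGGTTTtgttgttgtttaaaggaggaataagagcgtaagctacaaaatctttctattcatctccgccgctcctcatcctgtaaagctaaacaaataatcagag
AT5G15200: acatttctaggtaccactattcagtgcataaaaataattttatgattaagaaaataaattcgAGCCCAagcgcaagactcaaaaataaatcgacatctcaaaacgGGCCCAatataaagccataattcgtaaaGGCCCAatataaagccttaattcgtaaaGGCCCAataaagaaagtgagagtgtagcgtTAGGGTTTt
AT5G59690: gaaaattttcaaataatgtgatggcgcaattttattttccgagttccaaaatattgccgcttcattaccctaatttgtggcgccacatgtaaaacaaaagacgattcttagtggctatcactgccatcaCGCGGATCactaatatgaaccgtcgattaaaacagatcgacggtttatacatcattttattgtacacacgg
CYCB1;2: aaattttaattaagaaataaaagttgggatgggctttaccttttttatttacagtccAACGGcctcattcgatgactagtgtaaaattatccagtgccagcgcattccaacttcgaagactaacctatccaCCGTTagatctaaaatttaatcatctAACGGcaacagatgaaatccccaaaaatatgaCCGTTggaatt

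The same 200 bases were searched in all 23398 nuclear protein-coding genes of the table. Site II occurred in 135 of 201 ribosomal protein promoters, or 67.2%, against 19.3% of all promoters. It was in 41.9% of elongation factor promoters, 37.8% of histone promoters and 6 of 8 promoters (75%) of DNA replication genes. The telo box was in 12.9% of elongation factor promoters and 1 of the 8 replication promoters. In ribosomal protein promoters it occurred in 19.4% against 3.67% of all, and both motifs together in 15.9% against 1.1%. Both motifs lay mostly near the start in this family: site II was centred 40 to 60 bases before it in 27.4% of the ribosomal protein promoters and 180 to 200 bases before it in 0.995%. Over all promoters these windows held site II in 5.47% and 1.28%. The telo box fell there from 0.598% within 20 bases of the start to 0.244% at 180 to 200. A fall with distance is therefore not particular to this family. The octamer occurred in 9 of 45 histone promoters, or 20%, against 0.128% of all, and in no ribosomal protein promoter. The mitosis element core occurred in 6 of 9 B-type cyclin promoters and 48.9% of histone promoters, against 18.1% of all. The TATA sequence TATAAA, added after these, was in 46.3% of ribosomal protein promoters and 40.3% of all. The G-box CACGTG, also added, was in 24% of the photosynthesis promoters against 6.12%. The I-box GATAAG, added too, was in 20% of the photosynthesis promoters against 9.93% of all, and in 22.2% of histone promoters. All motifs were searched on both strands, matches of the telo box and site II shared a base in 1 promoter and those of site II and the mitosis core in 103, and a match is a description of letters, not of a bound site.

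Ribosomal protein genes with site II alone had a median of 387 TPM (n = 103), those with both motifs 293 TPM (n = 32), those with the telo box alone 355 TPM (n = 7) and those with neither 248 TPM (n = 59). Quartiles of these groups overlapped. Across all genes, site II was in 9.84% of promoters with a mean under 1 TPM, 15.5% at 1 to 10, 22.9% at 10 to 100, 31.8% at 100 to 1000 TPM and 26.9% (21 of 78) at 1000 TPM or more. Without ribosomal genes the share at 100 to 1000 TPM was 26%. The telo box was in 6.5%, 3.55%, 2.72%, 4.54% and 6.41% of promoters in the same 5 ranges, lowest in the middle one.

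**Figure D2:**
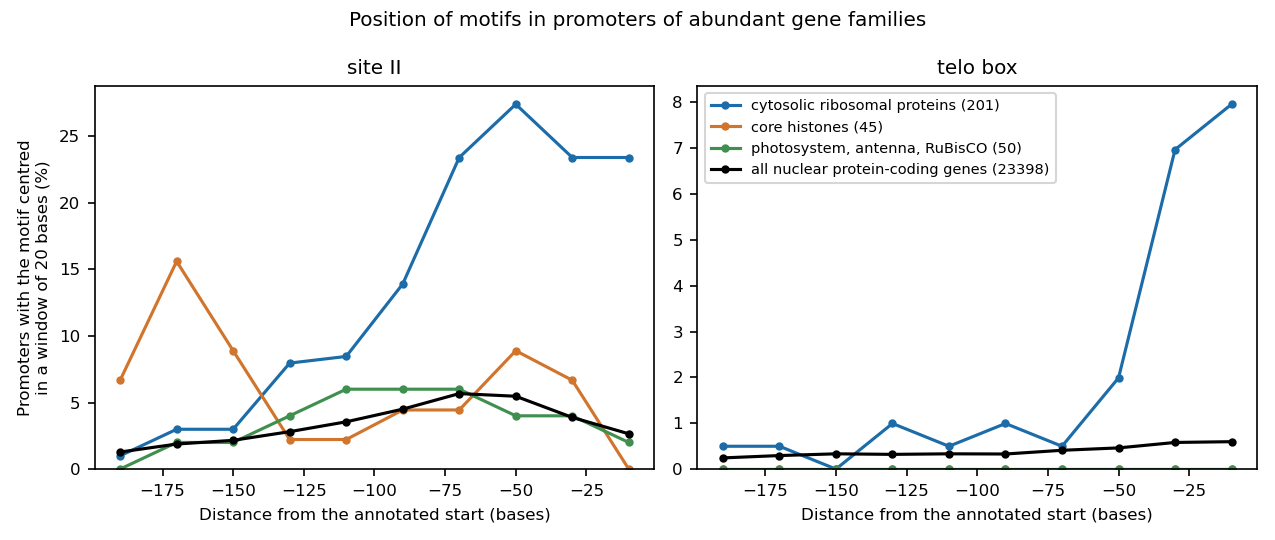
Percent of promoters with site II (left) or the telo box (right) centred in each window of 20 bases, by distance from the annotated start, for 3 gene families and all nuclear protein-coding genes. Site II reaches 27.4% of ribosomal protein promoters in the window 40 to 60 bases before the start, and the telo box is most frequent within 40 bases of the start in that family. Over all genes site II reaches 5.47% in that window, and the telo box is likewise most frequent within 40 bases.

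Listed organelle genes took up little of the TPM summed over listed genes. The plastid genome's 111 listed genes held 0.154%, 0.129% and 0.119% of that sum, and the 12 mitochondrial ones 0.0334%, 0.0319% and 0.0316%. The listed TPM come to 91.1% to 91.4% of the full TPM total, and the organelle share of the rest is not known here. The highest plastid genes were ATCG00450 at 283, 189.9 and 201 TPM, ATCG01020 at 209.6, 186 and 187 TPM and ATCG00630 at 226, 119 and 127 TPM, each highest in replicate 1. The highest mitochondrial genes, ATMG01390 and ATMG01380, had 111 ± 7.42 TPM and 80.4 ± 5.55 TPM. These identifiers were not paired with names in the annotation used. The step that enriched messenger RNA, if any, is not stated in the sources used here.

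The defining markers of the labelled tissue were read unevenly. WUS (AT2G17950, chromosome 2, 7808871 to 7810811, TAIR10.1) was read at 13.3, 14.6 and 18.8 TPM, highest in replicate 3, and ranked 10719 of 25760. CLV3 (AT2G27250, chromosome 2, 11664978 to 11665797, TAIR10.1) was near the limit of the data, with 2, 0 and 4 counts and 0.104, 0 and 0.249 TPM, where the middle value is a missing cell taken as 0. If counts are independent, a count of 0 in replicate 2 allows up to 3 counts, or 0.0688 CPM (counts scaled to the library's total). Low counts were mostly even numbers, so they may not be independent and this limit may be too low. CLE40, which encodes a related peptide, had 0.463, 0.456 and 0.371 TPM (0.708 TPM from counts). Of the 23 listed members of the pathway, 21 were detected, and the exceptions were these peptide genes. The list's median, which includes the peptide genes, was 14.9 ± 0.614 TPM, under the 16.7 TPM of all detected genes. It lay above the 11.5 TPM of all genes in the tables.

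Receptors stood far above the ligands. The receptor kinase CLV1 had 20.6, 25.1 and 22.3 TPM, with replicate 2 highest, and its relatives BAM1, BAM2 and BAM3 had 66.6, 68.3 and 74.8 TPM, 40.5, 39.8 and 41.7 TPM (26.9 TPM from counts) and 27.1, 28.8 and 23.4 TPM. BAM1 exceeded CLV1 in every library. The receptor-like protein CLV2 had 11.9 ± 0.265 TPM, its kinase partner CRN 15.6 ± 0.935 TPM (6.46 TPM from counts) and the receptor kinase RPK2 16.5, 18.2 and 20.1 TPM. ER, a receptor kinase that shapes inflorescence growth, was the highest of the list at 95, 95.3 and 88.7 TPM, and its homologs ERL2 and ERL1 had 15.8 ± 0.378 TPM and 11.2 ± 0.169 TPM. The phosphatases POL and PLL1, which act downstream of the receptors, had 14.9 ± 0.991 TPM and 9.66 ± 0.936 TPM.

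Among transcriptional partners, the GRAS proteins HAM1 and HAM2, which bind WUSCHEL, had 37.2, 39.5 and 37 TPM and 34.2, 34.1 and 34.3 TPM, and their homologs HAM4 and HAM3 had 11.3, 11.1 and 7.81 TPM and 9.56, 9.53 and 10.4 TPM. HAM1 and HAM2 did not overlap with WUS in any library. The basic helix-loop-helix genes HEC3, HEC1 and HEC2 had 12.5 ± 0.853 TPM, 4.08 ± 0.0413 TPM and 3.3 ± 0.771 TPM, and ULT1, which limits meristem size, had 13.2 ± 0.425 TPM. WUS, ERL2, CRN and POL lay within each other's library ranges in the order of levels, so their sequence in that order is not resolved.

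KNOX and BELL homeobox genes were all detected (21 of 21), with a median of 15 ± 1.47 TPM. STM (AT1G62360, chromosome 1, 23058582 to 23062063, TAIR10.1), the KNOX gene required to keep a meristem, had 30.6, 30 and 29.2 TPM, about the same in the 3 libraries. KNAT1, which shapes the inflorescence stem and is also known as BREVIPEDICELLUS, had 40.1, 37.8 and 39.9 TPM, and KNAT3, a KNOX gene of the class active outside meristems, had 42.2, 43.9 and 44.1 TPM. KNAT3 lay above both in deposited TPM, but from counts KNAT1, KNAT3 and STM had 50.7, 45 and 44.8 TPM, so that order is not settled. Of the BELL partners, BLH7 had 34.3 ± 0.395 TPM and PNY, which pairs with STM and KNAT1, had 20.4, 24.9 and 24.9 TPM. The lowest members were BLH11 at 2.78 ± 0.222 TPM and BLH5 at 2.41 ± 0.0218 TPM.

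Organ boundary genes were low as a group, at a median of 5.02 ± 0.145 TPM with 12 of 15 members detected. LOF1, a MYB gene of boundaries, led at 16.9, 18.7 and 14.4 TPM, followed by LSH4 at 12 ± 0.46 TPM, the MYB gene RAX2 at 9.94 ± 0.606 TPM, LSH3 at 8.07 ± 0.497 TPM and BOP2 at 7.98 ± 0.367 TPM (4.67 TPM from counts). The NAC genes CUC1, CUC2 and CUC3, which separate neighbouring organs, were not in that top 5 and are given here outside the naming rule at 4.62 ± 0.746 TPM, 7.31 ± 0.326 TPM and 4.95 ± 0.533 TPM. LAS, needed for axillary meristems, had 0.773, 1.02 and 0.774 TPM, and JLO 0.597, 0.714 and 0.74 TPM.

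Primordium and polarity genes had a wide range around a median of 7.22 ± 0.176 TPM. AS1, a MYB gene that represses KNOX genes in organs, had 91.5, 93.8 and 86.1 TPM. ANT, an AP2-domain gene of organ growth, had 61.6, 62.3 and 55.8 TPM, and FIL and YAB3, YABBY genes of the abaxial side, had 59.8, 57.4 and 54.7 TPM and 30.6, 32.6 and 33.4 TPM. From counts FIL stood above AS1, at 83 against 79.8 TPM. ETT, an auxin response factor with abaxial and gynoecium roles, had 39, 38 and 35.7 TPM. DRN, expressed in organ founder cells, was close to absent at 0.0681, 0.201 and 0.246 TPM and 2, 6 and 6 counts, and NUB, a homolog of JAG, had 1.4 ± 0.186 TPM. Of the class III HD-ZIP genes, which pattern the adaxial side and the meristem, CNA had 37.4, 37.7 and 33.1 TPM, REV 31.6, 31.2 and 32.5 TPM, PHV 24.4, 24.5 and 26.1 TPM and PHB 18.4, 18.3 and 15.8 TPM, in an order that the library ranges resolved, while HB8, of the vascular tissue, had 6.18 ± 0.489 TPM. The small inhibitors ZPR4 and ZPR3 of these factors had 13.8 ± 0.984 TPM and 3.65 ± 0.562 TPM.

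In the list of inflorescence and floral meristem identity, 17 of 18 members were detected by deposited TPM, SPL3 among them. SPL15 is not analysed here. The SQUAMOSA-binding genes SPL9 and SPL4, which promote flowering with age, had 118, 116 and 128 TPM and 115, 110.1 and 105 TPM, and SPL5 had 40.9, 40.4 and 41.1 TPM (17.2 TPM from counts). SPL3 was listed at 566, 479 and 491 TPM but had 2, 0 and 0 counts, the lowest ratio of counts to TPM in any list, so its TPM is not used as a level here. AP1 (AT1G69120, chromosome 1, 25982294 to 25986349, TAIR10.1), a MADS-box gene that both starts flower meristems and specifies sepals and petals, had 110.2, 103 and 109 TPM, and its relatives CAL and FUL had 7.78, 8.68 and 9.41 TPM and 33.1, 34.9 and 30.4 TPM. AP1 exceeded CAL, FUL and LFY in every library.

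LFY (AT5G61850, chromosome 5, 24844248 to 24846989, TAIR10.1), the transcription factor that gives flower meristems their identity, had 3.49, 4.16 and 3.21 TPM and ranked 17890. Its partner UFO, an F-box gene, had 0.224, 0.387 and 0.674 TPM, and LMI1, a homeobox gene downstream of LFY, had 4.18, 4.39 and 5.64 TPM. TFL1, which keeps the inflorescence shoot from turning into a flower, had 6.44, 5.98 and 3.57 TPM, lowest in replicate 3. The flowering-time MADS-box genes SOC1, AGL24 and SVP had 22.2, 22 and 22.7 TPM, 7.63, 6.89 and 6.27 TPM and 7.17, 6.87 and 6.51 TPM. FD, which partners the florigen, had 6.29, 5.27 and 5.35 TPM, FT, the florigen itself and known for expression in leaf veins, had 1.59, 3.73 and 2.92 TPM, and the repressor FLC had 1.23, 1.36 and 1.02 TPM. LHP1, a Polycomb-associated protein, had 31.8, 27.9 and 30.2 TPM. Counts gave more than 2 times the deposited TPM for FUL, CAL, AGL24 and FT, at 74.3, 19, 15.3 and 5.68 TPM. They gave 38.9 TPM for SOC1, 12 for SVP and 0.627 for FLC.

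Floral organ identity genes were higher, with a median of 29.2 ± 1.62 TPM and 16 of 17 members detected. SEP3 (AT1G24260, chromosome 1, 8593536 to 8596123, TAIR10.1), a class E gene that joins the other classes into complexes, had 272, 268 and 296 TPM and ranked 494. The class B genes AP3 and PI, which act as a pair for petals and stamens, had 156, 153 and 164 TPM and 153, 161 and 153 TPM, and their library ranges overlapped. The other class E genes followed the order SEP2 at 103, 108 and 106 TPM, SEP1 at 72.5, 69.8 and 70.6 TPM and SEP4 at 17.4, 17 and 17.5 TPM. The class C gene AG, which makes stamens and carpels and ends the flower meristem, had 38.1, 38.9 and 38.4 TPM, and the class A gene AP2 had 35.4, 37.7 and 40 TPM. From counts, SEP3, PI, AP1 and AG had 424, 247, 189.9 and 74.9 TPM, each more than 1.5 times the deposited value.

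The corepressors LUG and SEU had 33.4, 33 and 31.8 TPM and 27.9, 30.8 and 28.9 TPM (16.2 TPM from counts for SEU). Carpel and ovule genes were present at lower levels: CRC, of carpels and nectaries, had 26.8, 27.7 and 30.6 TPM, SHP1 16.6, 16.9 and 15.2 TPM, SHP2 8.99, 9.61 and 9.81 TPM, the ovule gene STK 11.8, 12.1 and 12.3 TPM (19 TPM from counts) and INO, of the outer integument, 6.0, 5.76 and 6.1 TPM. SUP, which bounds the stamen whorl, had 4.64, 4.88 and 4.03 TPM. KNU, which represses WUS in the flower, had 0.864, 0.958 and 0.779 TPM, just under 1 TPM in every library. 

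Over all 82 genes whose product or symbol names a MADS-box gene, 43 were detected, against 81.9% of all listed nuclear protein-coding genes. The 6 highest were SEP3, AP3, PI, AP1, SEP2 and SEP1. This set also holds AGL26, whose product is annotated as a tRNA methyltransferase, at 61.9 TPM. It further holds AT5G26865, a marked gene at 17.7 TPM but with 14, 0 and 8 counts. Over the 861 nuclear genes noted for transcription factor activity, a set chosen after the levels had been seen, SEP3 followed HMGB2 at 331 ± 11.2 TPM, BTF3 at 327 ± 7.62 TPM and COL4 at 289 ± 3.61 TPM. The library ranges of SEP3 and COL4 overlapped. That set is incomplete, since AP3 at 157 TPM is not in it. HMGB2 is a high mobility group chromatin protein, BTF3 is annotated as basic transcription factor 3, and COL4 is a CONSTANS-like zinc finger protein. HMGB3, HB6 and bZIP2 followed at 273, 218 and 196 TPM. From counts HMGB2 and BTF3 had 530.1 and 516 TPM, and SEP3 stood above COL4 at 302 TPM.

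Among 139 regulators of the meristem and growth lists, 132 were detected and the median was 12.5 TPM. SPL3 is left out of their order, since its TPM is not used as a level, but it is still among the 139 and the 132. The 14 highest others were SEP3, AP3, PI, SPL9, SPL4, AP1, SEP2, GIF1, AS1, SEP1, TCP15, GIF2, ANT and FIL, and 8 of them belong to the lists of floral identity. From counts 12 of these were among the 14 highest, with AG and FUL in place of GIF2 and TCP15. GIF1, a coactivator of the GRF growth regulators, had 116, 102 and 90.1 TPM, highest in replicate 1, and GIF2 had 63.7, 61 and 57.7 TPM but 29.2 TPM from counts, position 41 among the regulators. GRF1, GRF3 and GRF5 had 31.9 ± 3.04 TPM, 31.7 ± 1.67 TPM and 29.3 ± 2.72 TPM, the lowest of the list were GIF3 at 7.95 ± 0.536 TPM and GRF8 at 5.23 ± 0.406 TPM, and all 12 members were detected. The highest TCP genes were all of class I: TCP15, TCP21, TCP7, TCP14 and TCP22 had 64.8, 57.3, 52.4, 47.1 and 40.2 TPM, and TCP5 and TCP12 were lowest at 1.29 ± 0.305 TPM and 1.01 ± 0.0513 TPM. TCP3 is one of the marked genes.

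Cell division genes were moderate. All 21 listed cyclin-dependent kinases and mitotic cyclins were detected, with a median of 18.1 ± 0.369 TPM. The plant-specific mitotic kinase CDKB2;1 led at 60.2, 59.3 and 56.5 TPM, followed by CYCB1;2 at 52.3, 55.6 and 50.6 TPM, CDKA;1 at 31, 30.9 and 33.1 TPM, CYCA1;1 at 31.3 ± 1.11 TPM and CYCA3;2 at 30.1 ± 1.35 TPM. CDKA;1 and CYCA1;1 overlapped in their library ranges, but from counts CDKA;1 had 52.6 TPM and CYCA1;1 35.3 TPM. The lowest were CYCA2;2 at 4.18 ± 0.405 TPM and CYCA2;1 at 2.13 ± 0.143 TPM (6.51 TPM from counts for the first). Of the genes that gate entry into the cycle, the inhibitor KRP2 had 90.1, 90.2 and 94.8 TPM, CYCD3;3 73.1, 65.3 and 61.5 TPM, CYCD1;1 63.5 ± 1.33 TPM, CYCD3;2 53.2, 50.3 and 42.9 TPM and CYCD3;1 39.1 ± 2.56 TPM. E2FB and CYCD7;1 were lowest at 4.99 ± 0.403 TPM and 1.51 ± 0.323 TPM. Counts gave 78.2 TPM for CYCD3;2 and 7.88 TPM for E2FB. The replication list, with the sliding clamp PCNA1 at 50.2 ± 1.43 TPM and PCNA2 at 50 ± 4.13 TPM, was narrow, from MCM6 at 18.5 ± 1.49 TPM to those clamps, a range of 2.71-fold.

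Cytoskeletal genes were among the highest lists. Alpha- and beta-tubulins had a median of 242 ± 3.11 TPM, led by TUA6 at 551, 563 and 583 TPM, TUA4 at 446, TUA2 at 362, TUB4 at 361 and TUB3 at 349 TPM, and closed by TUA1 and TUB1 at 22.7 ± 1.02 TPM and 20.4 ± 1.36 TPM. ACT7, a vegetative actin, had 439, 429.7 and 459.6 TPM, ACT2 231, 243 and 269.8 TPM and ACT8 148, 153 and 149 TPM, in an order that held in every library. ACT3 and ACT1 had 65.5 ± 2.46 TPM and 46.4 ± 2.13 TPM, and the pollen actins ACT12 and ACT4 were lowest at 14.3, 16.4 and 16.9 TPM and 5.82, 8.62 and 6.67 TPM, with 7.4 TPM for ACT12 from counts. Tubulin and actin genes are close copies, so the same caution on the split of reads applies.

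In the list of small RNA and DNA methylation genes, 16 of 19 members were detected. AGO1, the main microRNA effector, had 77.7, 80.8 and 76.3 TPM, AGO4, of RNA-directed DNA methylation, had 41.3, 42.2 and 38.6 TPM, and AGO10, which sequesters miR165/166 in the meristem, had 37.1, 37.1 and 33.9 TPM. AGO9 and the maintenance methyltransferase MET1 had 29.7 ± 2.94 TPM and 25.5 ± 0.698 TPM. Counts gave 119 TPM for AGO1 and 46.7 TPM for AGO9. DRM1 at 0.677 ± 0.167 TPM and AGO8 at 0.0954, 0.0188 and 0.0229 TPM were lowest.

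Cytokinin synthesis and breakdown genes had a median of 3.08 ± 0.406 TPM, and 15 of 20 were detected. LOG8, which activates cytokinin, led at 27.3, 23.9 and 20.9 TPM (level with CKX3 from counts, at 28.3 and 28.4 TPM), followed by the oxidase CKX3 at 18.7, 17.5 and 21.3 TPM, IPT9 at 12.8 ± 0.302 TPM, CKX5 at 12.2 ± 0.316 TPM and CKX7 at 12 ± 0.454 TPM. The synthesis genes IPT5 and IPT7 were lowest at 0.263, 0.13 and 0.316 TPM and 0.0541, 0.0533 and 0.065 TPM. Receptors and phosphotransfer genes were higher at 15.4 ± 0.903 TPM: AHP2 had 53.4, 54.1 and 49.4 TPM, the response regulators ARR14 and ARR12 had 32.6 ± 2.31 TPM and 26.1 ± 2.7 TPM, AHP5 and AHP3 had 28.5 ± 1.5 TPM and 23.6 ± 2.14 TPM, and AHP6, an inhibitor of the pathway, and AHP4 had 0.795 ± 0.196 TPM and 0.258 ± 0.096 TPM. The type-A regulators, which damp the response, were led by ARR7 at 45.2, 46.3 and 45.7 TPM and ARR4 at 41.6, 41.5 and 39.3 TPM, with ARR16, ARR6 and ARR9 at 22.8 ± 3.91 TPM, 19.2 ± 0.931 TPM and 15.4 ± 1.12 TPM. ARR3 and ARR17 lay under 1 TPM at 0.105, 0.466 and 0.253 TPM and 0.154 ± 0.0659 TPM.

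In the list of auxin synthesis and transport, 20 of 21 members were detected at a median of 14.3 ± 0.551 TPM. The transporters ABCB1 and ABCB19 led at 62, 63.9 and 70.3 TPM and 63.7, 64.7 and 66.3 TPM with overlapping ranges (62.7 and 88.6 TPM from counts), followed by PIN7 at 46.5 ± 0.782 TPM and the importers AUX1 at 31.7, 33.6 and 38.3 TPM and LAX2 at 29.2 ± 0.996 TPM. YUC1, of auxin synthesis, and PIN2, known from roots, were lowest at 1.6, 1.0 and 1.36 TPM and 0.776, 0.693 and 0.954 TPM. Receptors and response factors were all detected (21 of 21) at a median of 32.8 ± 1.41 TPM: ARF6, ARF2 and ARF8 led at 117, 120.1 and 122 TPM, 113, 118 and 115 TPM and 87.1, 86.5 and 88.1 TPM, AFB1 and AFB5 had 57.5 ± 3.15 TPM (34.3 TPM from counts) and 51.2 ± 2.51 TPM, and ARF11 and ARF19 closed the list at 7.29 ± 0.774 TPM and 6.46 ± 0.244 TPM. Of the gibberellin genes, the DELLA repressors RGL1, RGA, RGL2 and GAI led at 104, 104 and 111 TPM, 103, 95.6 and 96.3 TPM, 70.3, 64.1 and 67 TPM and 52.4, 49.5 and 49.3 TPM, with the F-box gene SLY1 at 47.7 ± 4.13 TPM. The synthesis gene GA3ox2 and the catabolic gene GA2ox4 were lowest at 0.0778 ± 0.0204 TPM and 0.626 ± 0.0903 TPM.

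Wall genes were given by polymer. CSLD5 (AT1G02730, chromosome 1, 594502 to 598657, TAIR10.1), the gene for which the series is named, encodes a cellulose synthase-like protein of dividing cells and was read at 56.4, 60.1 and 54.8 TPM, rank 2912. Its relatives were lower in every library: CSLD2 had 12.5, 13 and 14 TPM, CSLD3 12.2, 13.4 and 12.9 TPM, CSLD6 2.05, 2.11 and 1.85 TPM, CSLD4 1.14, 1.46 and 0.929 TPM and CSLD1 0.312, 0.456 and 0.605 TPM. CSLD2 and CSLD3, known from root hairs, overlapped in their library ranges. CSLD5 held the greater part of the family's summed 86.7 TPM.

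Among cellulose synthases, the primary-wall subunits CESA3, CESA1 and CESA6 had 105, 105 and 114 TPM, 67.3, 71.7 and 77.5 TPM and 57.2, 59.3 and 67.3 TPM, each highest in replicate 3. KOR1, a membrane glucanase needed for cellulose synthesis, had 120, 119.9 and 127 TPM, and COB, which orients growth, had 51.9, 55.8 and 62 TPM. KOR1 was first in deposited TPM and CESA3 from counts, at 121 against 118 TPM. CESA4, CESA8 and CESA7, of secondary walls, had 14.8 ± 2.16 TPM, 9.98 ± 0.538 TPM and 7.53 ± 1.43 TPM and are named outside the rule, and CESA9 and CESA10 were lowest at 3.62 ± 0.938 TPM and 0.723 ± 0.156 TPM. Mannan and xyloglucan synthesis genes were all detected, with the xylosyltransferase XXT2 at 101, 102 and 105 TPM, the mannan synthase CSLA2 at 58 ± 1.59 TPM, XXT5 at 52.3 ± 1.98 TPM, the fucosyltransferase FUT1 at 36.2 ± 2.15 TPM and XXT1 at 27.6 ± 1.21 TPM. CSLA9 and CSLC12 closed it at 10.6 ± 0.27 TPM and 8.47 ± 0.949 TPM. From counts CSLA2 had 95.8 TPM and stood level with XXT2 at 94.1 TPM, while XXT5 had 30.6 and CSLA9 17.1 TPM. The homogalacturonan synthesis list had QUA1 at 68.2, 67.7 and 79.3 TPM, GAUT1 at 51.7 ± 0.729 TPM, QUA2 at 47.3 ± 2.97 TPM and GAUT7 at 35 ± 0.404 TPM.

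Wall-loosening genes were led by single members. XTH9, a xyloglucan endotransglucosylase/hydrolase, had 1592, 1528 and 1510.1 TPM and ranked 33 of all genes. The next members, XTH16, XTH6, XTH4 and XTH24, had 207 ± 8.08 TPM, 166 ± 3.56 TPM, 126 ± 2.3 TPM and 89.3 ± 14.9 TPM, and XTH33 and XTH31 were lowest at 1.05 ± 0.176 TPM and 0.263 ± 0.0767 TPM. The list's sum was 2400 ± 45.8 TPM. Among alpha-expansins, 14 of 18 were in the tables and all of those were detected by deposited TPM. EXPA20 is a marked gene among them, at 18.6 TPM but with 3, 2 and 3 counts (0.0825 TPM from counts). EXPA6 led at 256, 248 and 259 TPM, followed by EXPA1 at 77.3, 71.7 and 83.8 TPM, EXPA5 at 63 ± 5.23 TPM, EXPA4 at 61.3 ± 2.31 TPM and EXPA15 at 45.3 ± 0.598 TPM, and EXPA16 and EXPA14 were lowest at 4.58 ± 0.214 TPM and 1.79 ± 0.66 TPM.

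Epidermal genes formed one of the highest lists, with 26 of 27 members detected, a median of 51.2 ± 3.19 TPM and a sum of 7869 ± 544 TPM, most of it from LTP1. PDF1, a marker of the outermost layer, had 743, 750.4 and 742 TPM and barely varied. The cutin and wax genes DCR, CER1 and CER6 had 338, 314 and 387 TPM, 267, 279 and 322 TPM and 267, 274 and 311 TPM, all highest in replicate 3. ATML1, the homeodomain gene that specifies the epidermis and whose promoter drives the transgene elsewhere in the series, had 43.8, 43 and 45.5 TPM and is named outside the rule with its homolog PDF2 at 55.1 ± 2.63 TPM. HDG11 and SHN2 were lowest at 5.06 ± 0.311 TPM and 0.678 ± 0.221 TPM.

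**Figure D3:**
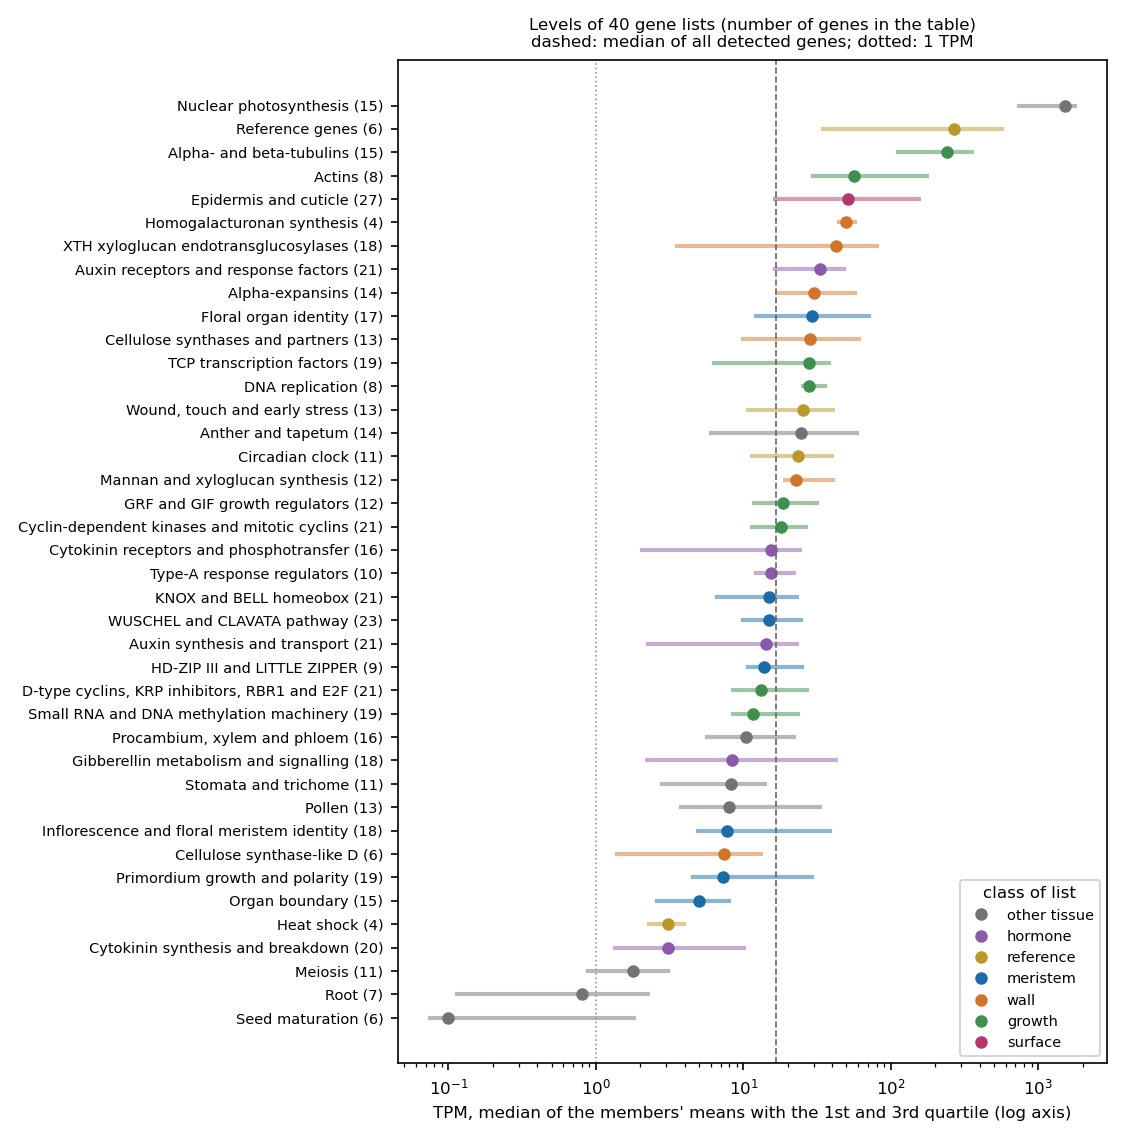
Median TPM (points) and quartiles (lines) of the members' means for 40 gene lists on a log axis, coloured by class of list. The photosynthesis list stands highest at 1525 TPM, the WUSCHEL and CLAVATA list lies just under the dashed median of all detected genes, and the root and seed lists lie under the dotted line at 1 TPM.

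Of the 40 lists, 19 had a median above that of all detected genes. Of the lists of other tissues, 2 had a median under 1 TPM. The root list had 7 of 18 genes in the tables and a median of 0.808 ± 0.133 TPM: ESB1, of the Casparian strip, had 7.88, 7.56 and 6.64 TPM but is one of the marked genes (0.934 TPM from counts), COBL9 had 2.73, 3.67 and 2.7 TPM, CASP2 1.96, 1.32 and 1.22 TPM, PIN2 0.808 ± 0.133 TPM, and the quiescent-centre gene WOX5 0.366, 0.217 and 0 TPM. MYB36 and PLT2 had 0.0334 ± 0.0293 TPM and 0.0494, 0 and 0.0297 TPM. The seed list had 6 of 13 in the tables: SESA4, a storage albumin, had 6.36, 7.79 and 5.79 TPM, FUS3 2.3, 2.92 and 1.91 TPM, CRA1 0.202, 0.16 and 0 TPM, LEC2 0.0282, 0.139 and 0.0679 TPM, OLEO1 0.185, 0.0365 and 0 TPM and ABI3 0.0223, 0.022 and 0 TPM. OLEO1 and CRA1 were highest in replicate 1 and at 0 in replicate 3, so a mean over the 3 libraries does not describe either. Every listed gene has a count in replicate 1, so for listed genes near the floor a count of 0 could fall only in replicates 2 and 3. This pattern is therefore not read as a trait of these genes. Members outside the tables are not analysed here, so these medians cover the listed part only.

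Markers of anthers and pollen were read. A9, a tapetum gene of young anthers, had 264, 283 and 207 TPM, and the pollen wall genes LAP6, ACOS5, LAP5 and CYP704B1 had 92.1, 88.3 and 77.8 TPM, 85.7, 81.5 and 62.8 TPM, 69.8, 65.6 and 55.3 TPM and 48.9, 47.7 and 33.7 TPM. Every one of these had its lowest value in replicate 3. DYT1 and TDF1, early tapetum regulators, were lowest at 3.4 ± 0.572 TPM and 2.33 ± 0.177 TPM, and all 14 members were detected. Pollen genes were also read: VGD1, a pectin methylesterase, had 75.8, 123 and 93.6 TPM, the arabinogalactan protein AGP6 51.2, 90.3 and 63.7 TPM, PPME1 47, 80.6 and 61.4 TPM, AGP11 22.4, 42.6 and 34.1 TPM and ACT12 15.9 ± 1.41 TPM. The first 4 were highest in replicate 2 and lowest in replicate 1. HAP2, of sperm cells, and ANX2 had 0.661 ± 0.0996 TPM and 0.588 ± 0.094 TPM. Meiosis genes were low, with a median of 1.77 ± 0.345 TPM: DMC1, the meiotic recombinase, had 12.7, 13.9 and 12.6 TPM (21.7 TPM from counts), SDS 3.73 ± 0.212 TPM, HEI10 3.47 ± 0.314 TPM, ZYP1a 2.7 ± 0.157 TPM and ZYP1b 1.91 ± 0.22 TPM, while REC8 and SWI1 had 0.82 ± 0.181 TPM and 0.596 ± 0.131 TPM. The part that older buds had in any level above was not tested.

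Vascular genes had a median of 10.4 ± 1.16 TPM, near the 11.5 TPM of all genes in the tables. That median lay under the 16.7 TPM of all detected genes. LHW, which starts vascular divisions, had 59.2, 56.6 and 55.4 TPM, the xylem protease XCP2 32.2, 38.9 and 34.4 TPM, the phloem sucrose carrier SUC2 33.7, 34.1 and 32.4 TPM, OPS 22.8 ± 2.54 TPM and the cambium receptor PXY 21.9 ± 0.456 TPM. The xylem regulators VND6 and VND7 were lowest at 2.13 ± 0.396 TPM and 0.428 ± 0.205 TPM. Of stomatal and trichome genes, the peptide gene EPFL9 had 29.3, 27.4 and 28.6 TPM, the receptor-like gene TMM 24.4, 23.3 and 21.3 TPM, EPF2 15.7 ± 1.37 TPM, SPCH, which starts the stomatal lineage, 12.2 ± 0.237 TPM and BASL 8.76 ± 0.488 TPM, and the trichome genes GL1 and GL3 were lowest at 0.73 ± 0.299 TPM and 0.53 ± 0.152 TPM. The photosynthesis list had the highest median of all lists, 1525 ± 58.7 TPM. Its regulators GLK2 and GLK1 had 31.8 ± 2.23 TPM and 30.4 ± 1.86 TPM, and these were its lowest members.

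Stress and time-of-day genes completed the profile. Touch and wound genes had a median of 25.4 ± 1.26 TPM: TCH3 had 70.8, 66.3 and 89.4 TPM (28.4 TPM from counts), TCH2 53.8, 54.5 and 57.4 TPM, XTH22 45.2, 41.1 and 35.5 TPM, JAZ1, a jasmonate repressor, 33.3, 36.1 and 51.3 TPM, and WRKY53 30.5 ± 2.52 TPM (15.2 TPM from counts), while WRKY40 and ZAT12 had 9.97 ± 0.978 TPM and 8.72 ± 0.548 TPM. The heat-shock genes HSP101, HSP90-1, HSP70-4 and HSFA2 were low at 5.52 ± 0.586 TPM, 3.44 ± 0.607 TPM, 2.76 ± 0.368 TPM and 0.841 ± 0.358 TPM. Among clock genes, PRR7 had 80.1, 85.6 and 86 TPM, ELF4 41.1, 54 and 56.5 TPM, PRR5 33.3, 42.5 and 49.1 TPM, TOC1 34.8, 38.8 and 40.8 TPM and ELF3 30.5 ± 1.07 TPM, and the morning genes CCA1 and LHY, named partly outside the rule, had 10.7, 11.4 and 12.3 TPM and 5.94, 7.64 and 6.37 TPM, with RVE8 at 9.91 ± 0.666 TPM. The sources used here do not state the harvest time. The common reference genes UBQ10, GAPC2, GAPC1, UBC21, PP2AA3 and TIP41 had 660.1 ± 12.1 TPM, 587 ± 10.3 TPM, 491 ± 25 TPM, 41.9 ± 1.37 TPM, 31.9 ± 1.74 TPM and 24.3 ± 0.768 TPM. From counts GAPC2 stood above UBQ10, at 728 against 605 TPM.

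The 3 libraries agreed closely for most genes. The SD of log2 CPM had a median of 0.0780 over 16873 genes with a mean of at least 5 TPM, and 277 of them exceeded 0.5. Gene lists differed more in some directions than others. Relative to each gene's mean, the 10 pollen genes with a mean of at least 1 TPM had a median log2 deviation of -0.29 in replicate 1, 0.31 in replicate 2 and -0.01 in replicate 3, and 9 of them were highest in replicate 2. The share highest in that library was 30.7% over all 21016 genes at that level. Tapetum genes stood lowest in replicate 3 in 13 of 14, with a median deviation of -0.19, against a share of 35.5% over all genes. The GRF and GIF genes were lowest there in 11 of 12, at -0.10. Epidermal and cuticle genes stood highest in replicate 3 in 20 of 26, at 0.12, against 36.2% of all genes. The wound, touch and early stress genes were highest there in 8 of 13, with a larger median deviation of 0.185, and the cellulose synthases and partners in 9 of 12, at 0.10. The WUSCHEL and CLAVATA list had median deviations of 0.01, -0.03 and -0.01, and the floral organ list 0.00, -0.03 and 0.02. By members, 10 of 16 floral organ genes were highest in replicate 3, against 36.2% of all genes. In the WUSCHEL and CLAVATA list 10 of 21 were lowest in replicate 2, against 34.1% of all genes. Other lists were lowest there too: KNOX and BELL genes in 13 of 21, photosynthesis genes in 12 of 15 and tubulins in 11 of 15. Each of these had 1 member highest in replicate 2.

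**Figure D4:**
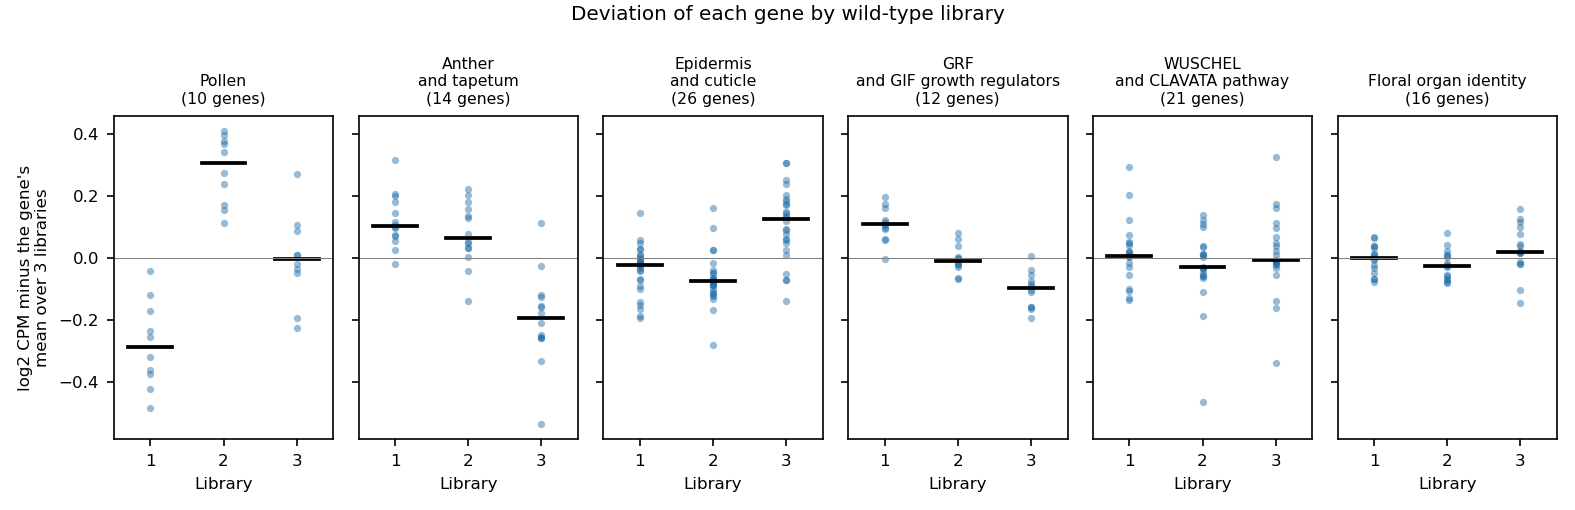
Deviation of log2 CPM from the gene's mean over the 3 wild-type libraries, for each gene (points) of 6 lists, with the median as a bar. Pollen genes sit highest in replicate 2, tapetum genes lowest in replicate 3 and epidermal genes highest in replicate 3, while the stem cell and floral organ medians stay near 0.

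The 12 genes with the largest SD of log2 CPM rested mostly on few reads. Of them 9, AT4G04425, AT5G26865, AT3G12545, AT5G41680, AT2G37362, AT1G08047, AT1G08633, AT3G54085 and AT1G29965, had at most 31 counts in any library and an exon that overlaps another gene. Their deposited TPM varied less than their counts, as in AT5G41680, an annotated protein kinase, with 57.4, 60 and 55.8 TPM but 6, 14 and 0 counts. AT2G07605 and the plastid gene ATCG00200 had 21, 16 and 2 and 23, 20 and 3 counts. AT4G12410, a SAUR-like auxin-responsive gene, was the exception, with 83, 148 and 362 counts and 3.65, 6.47 and 19.5 TPM, highest in replicate 3 on both scales. With at least 100 counts required in every library, a setting added after that was seen, the largest spreads were those of GH9B15, a glycosyl hydrolase, at 4.34, 4.4 and 11 TPM, the jasmonate ZIM-domain gene AT3G22275 at 18.1, 17.4 and 41.3 TPM, HMT3, a homocysteine methyltransferase, at 6.99, 9.24 and 18.2 TPM, and AT4G25040 at 18.5, 24.1 and 47.9 TPM. These 4 were each highest in replicate 3. DAF1, an F-box family gene, had 4.1, 8.35 and 11 TPM, and AT2G31425, a pectin methylesterase inhibitor family gene, had 5.01, 14.9 and 9.51 TPM, highest in replicate 2.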

How the data were processed

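RNA was sequenced in 9 libraries, of which the 3 labelled col-0 are described, with replicate numbers from the sample titles; the 12 value columns of the other genotypes were not used. The authors deposited raw counts per gene and TPM values for the same genes. Per the submitters' processing notes, TAIR10 was the genome build and Trimmomatic 0.39, HISAT2 2.2.1 and featureCounts 2.0.6 the tools. What made the TPM, the counting settings, the use of strand and the annotation release were not given in the sources used here. Reads of overlapping or antisense genes therefore cannot be assigned with certainty. Missing TPM cells (111, 884 and 1171 per library) were set to 0. The listed TPM sum to 91.3%, 91.4% and 91.1% of the full TPM total. Replicate 1 has 0 genes without a count, against 1001 and 1342 in replicates 2 and 3; a filter on that library is not given in the sources used here. Of genes with 1 to 20 counts, 73.8% to 75.7% had an even number. The floor of 3 counts (0.0688 to 0.0844 CPM) treats counts as independent and covers counting error only.

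Gene names, exon lengths and promoters came from RefSeq TAIR10.1, matched by locus tag for 25637 of 25760 genes. Counts were scaled with TMM factors in edgeR 4.0.16 (R 4.3.3, prior count 2 on log2 CPM), and other steps ran in Python 3.11.15. Only levels, ranks, means and SDs were computed, with no test and no comparison of genotypes. The 40 gene lists hold 592 distinct genes, 566 of them in the tables, and the members and lists were chosen with earlier results of these data known. Genes were named by rule: the 30 highest nuclear genes, all members of 4 lists (WUSCHEL and CLAVATA, meristem identity, organ identity, CSLD), up to 5 highest and 2 lowest members of every other list, 15 regulators, the 12 most variable genes and 5 organelle genes; genes outside it were added where the text says so and for families and promoters. Alternatives were TPM from counts, leaving out each library, other levels and pseudocounts, and DESeq2 1.42.0 size factors. The spread and motif steps were tested on simulated data.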

Additional observations from a re-analysis of the deposited data

How the results depend on the processing

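With TPM recomputed from the counts and exon length, the share of the 100 highest genes was 17.2% in place of 17.8% and that of cytosolic ribosomal proteins 9.78% in place of 8.22%, both moved by more than 1 SD between libraries. Taking every gene with a structural ribosome note, an alternative chosen after seeing the data, gave 11.4%. Without organelle genes in the total these shares were 17.8% and 8.24%. Leaving out a library at a time gave 17.6% to 18.0% and 8.03% to 8.44%. The median SD of log2 CPM, 0.0780, was 0.0554 to 0.0688 over pairs of libraries, 0.0922 for genes with a mean of at least 1 TPM and 0.117 for genes with at least 1 count. It was 0.0742 with at least 100 counts in every library, also chosen after seeing the data. Detected genes numbered 19496 from counts, 20499 to 20638 without a library, 21564, 18938 and 16413 at 0.5, 2 and 5 TPM, and 23011 with 3 counts in every library, the last again added. Against the median of all genes in the table, 27 lists in place of 19 lay above it. At 0.5 TPM 1 list of other tissues lay under the level, and at 2 TPM 3 did, in place of 2. Of 40 list medians, 38 stayed within 1.5-fold when taken from counts, and of 341 named genes with an exon length 294 did, while 29 of the 40 lists had the same highest member. The exceptions among lists were inflorescence and floral meristem identity, at 13.7 TPM, and wound, touch and early stress, at 15.5 TPM. Leaving out replicate 1, 2 or 3 moved 5, 2 and 2 of 347 named genes by over 1.5-fold, which were AGO8, WOX5, PLT2, CRA1 and OLEO1, then ARR3 and LEC2, then CLV3 and AT4G12410. Of these AT4G12410 alone had a mean above 1 TPM, at 9.88 TPM and 5.06 TPM without replicate 3. No paired analysis was possible because 1 genotype is described and no groups are compared.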
